A study of Homo sapiens with 6 samples.

Results

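Azurophil granules, also called primary granules, are the first secretory granules that a developing neutrophil makes, at the promyelocyte stage. They store myeloperoxidase, which makes hypochlorous acid from hydrogen peroxide and chloride, and a set of serine proteases that digest microbes and matrix. The transcripts of these proteins are made in myeloblasts and promyelocytes and are shut off later, so they mark immature granulocytic cells. The genes described here are MPO, ELANE, PRTN3, AZU1, CTSG, CFD, SRGN, SERPINB1, RNASE2 and MS4A3, a fixed list of 10 of the 29810 genes in the table. They are taken by name, with no threshold on a measured value. All 10 were found by symbol, and all 10 were tested, as were 11913 genes in all, because 3 or more of the 6 libraries had them at 1 FPKM or higher.

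The samples are 3 libraries of Kasumi-1 cells kept with I1 at 0.125 µM for 48 h and 3 libraries of Kasumi-1 cells kept with control for 48 h. Kasumi-1 is an established human line of immature leukaemic myeloblasts that carries the RUNX1-RUNX1T1 fusion, and both groups share it. I1 is a code name and its structure is not described here, and what the control cells received is not given in the labels. Separate cultures are nowhere stated for the libraries of a group. The p-values therefore reflect the scatter among these libraries alone, which may be technical. Levels are in FPKM, a count of fragments scaled by gene length and by library size, and fold changes are on the scale of log2(FPKM + 1), I1 over control.

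Of 6 myeloblast markers all 6 were tested, and their summed level was 325 to 338 FPKM with I1 and 271 to 309 FPKM in control. Of 5 eosinophil markers none was tested. Their sum was 0.380 to 0.777 FPKM with I1 and 0.240 to 1.07 FPKM in control, and PRG2 was at 0 in all libraries. Of the 4 basophil and mast cell markers in the table none was tested either, with sums of 0.469 to 0.586 FPKM with I1 and 0.509 to 0.780 FPKM in control. Of 5 monocyte markers 2 were tested, CSF1R and LYZ, with sums of 5.39 to 12.8 FPKM with I1 and 6.20 to 16.5 FPKM in control. Of the 4 mature neutrophil markers in the table only CSF3R was tested, with sums of 54.6 to 94.1 FPKM with I1 and 64.7 to 115 FPKM in control. Library totals were 16391000 to 16948000 fragments with I1 and 17331000 to 18204000 in control. Control replicate 1 stood apart from the other 5 libraries on the first principal component, at 43.8 against -19.8 to 2.90, and genes rich in G and C were higher in it. The other libraries had trends with GC content too. Spearman correlations of the deviation from each gene's mean with GC content were -0.33, -0.59 and -0.51 in I1 replicates 1, 2 and 3. In control replicates 1, 2 and 3 they were 0.75, -0.19 and 0.26. Values without control replicate 1 are given wherever it changes a direction.

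The most abundant azurophil granule transcripts stood at the very top of the Kasumi-1 transcriptome, and the others ranked lower. MPO was the most abundant nuclear protein-coding transcript in every library, and PRTN3, the protease proteinase 3, ranked 2 or 3. ELANE, neutrophil elastase, ranked 4 or 5. Over all genes, mitochondrial ones included, the mean level put MPO at rank 2, PRTN3 at rank 6 and ELANE at rank 10. The other members ran from rank 46 for AZU1 to rank 10108 for MS4A3, with SRGN at 611 and RNASE2 at 1576. The 10 genes together took 5.81%, 4.93% and 5.41% of all FPKM in the I1 libraries and 6.95%, 5.21% and 6.07% in the control libraries. MPO, PRTN3 and ELANE alone took 5.26%, 4.53% and 4.94% with I1 and 6.35%, 4.82% and 5.59% in control, so nearly all of the sum came from these genes.

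None of the 10 genes passed the test between I1 and control. By limma 0 of 10 had an adjusted p under 0.05, where 4 of all 11913 tested genes (0.0336%) did. Also 0 of 10 had an unadjusted p under 0.05, against 9.57% of the tested genes. The smallest adjusted p was 0.525, for MPO. In none of the 10 were the groups free of overlap, where 8.74% of tested genes had every I1 library below every control library and 12.9% had every I1 library above. With the replicate number as a block the smallest adjusted p was 0.145, for ELANE, and again 0 of 10 passed, against 0.0504% of the tested genes. MPO and ELANE had an unadjusted p under 0.05 in that fit, as 27.1% of the tested genes did.

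**Figure D1:**
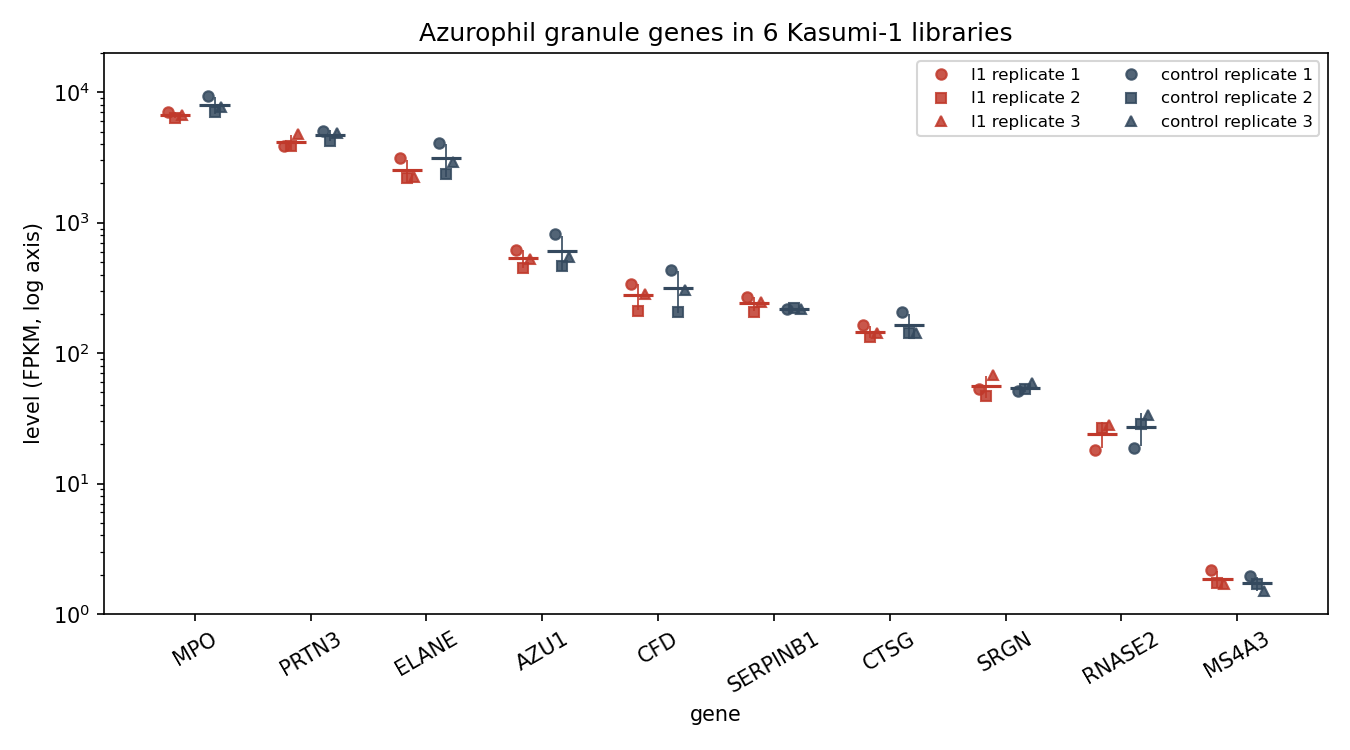
Level of each azurophil granule gene in FPKM on a log axis, with 3 I1 libraries in red to the left of 3 control libraries in grey; symbols mark the replicate number, horizontal lines the group mean and vertical lines 1 SD. Levels span from 1.51 FPKM for MS4A3 to 9392 FPKM for MPO, and in every gene the groups overlap.

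MPO encodes the haem enzyme myeloperoxidase (ENSG00000005381; chromosome 17 of hg38, 58269856 to 58280935, minus strand). It had 7076, 6361 and 6699 FPKM in the I1 libraries and 9392, 7006 and 7763 FPKM in the control libraries. Only I1 replicate 1 reached into the control range, above control replicate 2, and each I1 library lay below the control library of its own number. Its log2 fold change was -0.25 with a standard error of 0.188 and a 95% interval of -0.69 to 0.18. A change of the mean to 0.621 or to 1.13 times the control level is thus within the interval. Without control replicate 2 the log2 fold change was -0.35, and without control replicate 1 it was -0.14.

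The serine proteases ELANE, PRTN3 and the protease-like AZU1 lie side by side on the plus strand of chromosome 19, followed by CFD, in the order AZU1, PRTN3, ELANE, CFD. AZU1 (ENSG00000172232) spans 825097 to 832018, PRTN3 (ENSG00000196415) 840960 to 848175, ELANE (ENSG00000197561) 851014 to 856247 and CFD (ENSG00000197766) 859643 to 863630, all on hg38. The gaps between them are 8941, 2838 and 3395 bases. CTSG (ENSG00000100448), the protease cathepsin G, lies on chromosome 14 at 24573522 to 24576260 on the minus strand. The upstream sequences that RefSeq gives on build GRCh38.p14 are shown for PRTN3, AZU1, CFD, CTSG and RNASE2. Each runs from 250 to 41 bases before the RefSeq start, and none overlaps an exon of its gene in GENCODE. The AZU1 window lies inside the gene span given above, in an intron of the longer of 2 GENCODE transcripts and upstream of the shorter one. Capitals mark letters that match GAGGAA (a core recognised by PU.1), TTNNGNAA (C/EBP), AACNG (MYB) or TGTGGT (RUNX) on either strand, and no match overlaps another.
PRTN3, chr19:840749-840958, plus strand: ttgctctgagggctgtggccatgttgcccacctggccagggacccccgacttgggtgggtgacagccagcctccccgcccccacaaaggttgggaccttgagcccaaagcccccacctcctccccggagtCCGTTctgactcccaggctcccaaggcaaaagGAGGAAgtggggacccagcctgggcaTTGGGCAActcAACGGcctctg
AZU1, chr19:827587-827796, plus strand: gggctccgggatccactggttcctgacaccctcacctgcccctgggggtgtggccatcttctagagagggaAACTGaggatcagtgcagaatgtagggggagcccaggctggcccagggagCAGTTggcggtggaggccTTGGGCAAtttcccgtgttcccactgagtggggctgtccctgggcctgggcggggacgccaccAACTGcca
CFD, chr19:859414-859623, plus strand: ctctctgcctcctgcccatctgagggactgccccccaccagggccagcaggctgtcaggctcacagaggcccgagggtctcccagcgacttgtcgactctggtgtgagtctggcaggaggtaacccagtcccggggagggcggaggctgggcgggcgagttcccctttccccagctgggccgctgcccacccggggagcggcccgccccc
CTSG, chr14:24576291-24576500, minus strand: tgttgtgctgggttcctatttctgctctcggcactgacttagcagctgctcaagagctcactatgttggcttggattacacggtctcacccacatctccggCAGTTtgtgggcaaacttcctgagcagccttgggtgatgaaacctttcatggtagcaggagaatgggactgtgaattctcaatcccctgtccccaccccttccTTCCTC
RNASE2, chr14:20955237-20955446, plus strand: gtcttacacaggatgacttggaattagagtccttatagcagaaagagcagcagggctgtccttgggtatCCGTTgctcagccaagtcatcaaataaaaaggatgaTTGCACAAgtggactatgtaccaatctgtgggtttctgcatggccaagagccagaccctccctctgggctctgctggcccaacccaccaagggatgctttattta

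In these windows the PU.1 letters were found in PRTN3, 88 bases before the start, and in CTSG, 46 bases before the start on the other strand. The C/EBP letters were found in PRTN3, AZU1 and RNASE2, and in PRTN3 and AZU1 they read TTGGGCAA. The MYB letters were found in PRTN3, AZU1, CTSG and RNASE2, the RUNX letters in none of the 5, and CFD held none of the 4 motifs. Of 35116 RefSeq promoter windows of the same length, 19.9% hold the PU.1 letters, 30.1% the C/EBP letters, 64.4% the MYB letters and 9.41% the RUNX letters. A match describes the letters and does not show a bound site.

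PRTN3 had 3853, 3858 and 4808 FPKM with I1 and 5025, 4206 and 4830 FPKM in control. I1 replicates 1 and 2 lay below all controls, and I1 replicate 3 lay among them. Its log2 fold change was -0.17 ± 0.178 (SE), with a limma adjusted p of 0.628, and it was -0.28 without I1 replicate 3. ELANE had 3124, 2199 and 2252 FPKM with I1 and 4118, 2382 and 2923 FPKM in control. The replicate 1 library was the highest of its group in both groups, and each I1 library lay below the control of its own number. The log2 fold change of ELANE was the lowest of the 10, -0.30 ± 0.246 (SE), with a 95% interval of -0.86 to 0.27 and a limma adjusted p of 0.561. It was -0.08 without control replicate 1 and -0.48 without control replicate 2.

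AZU1 encodes azurocidin, a relative of elastase without protease activity that kills bacteria and attracts monocytes. It had 617, 450 and 531 FPKM with I1 and 812, 467 and 544 FPKM in control. Control replicate 1 was the highest library and I1 replicate 1 the next, and the other 4 libraries of both groups were interleaved. Its log2 fold change was -0.16 ± 0.226 (SE), with a limma adjusted p of 0.718, and it turned to 0.07 without control replicate 1. CTSG had 164, 132 and 143 FPKM with I1 and 205, 144 and 142 FPKM in control, so that here too control replicate 1 was the highest library. The log2 fold change of CTSG was -0.15 ± 0.174 (SE; limma adjusted p = 0.675) and 0.03 without control replicate 1. CFD encodes complement factor D, the serine protease that cleaves factor B in the alternative pathway. It had 337, 210 and 285 FPKM with I1 and 430, 208 and 305 FPKM in control. The order of the replicates, 1 above 3 above 2, was the same in both groups. Its log2 fold change was -0.14 ± 0.280 (SE; limma adjusted p = 0.796), the widest error of the 10, and it was 0.11 without control replicate 1 and 0.04 without I1 replicate 2.

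SERPINB1 and SRGN act on the proteases from outside and inside the granule. SERPINB1 is the cytosolic serpin that inhibits elastase, proteinase 3 and cathepsin G (ENSG00000021355; chromosome 6, 2832332 to 2842006, minus strand). It had 268, 208 and 246 FPKM with I1 and 217, 221 and 219 FPKM in control. The control libraries differed by less than anywhere else in the list, with a coefficient of variation of 0.837% where counting error alone gives 0.912%. The I1 libraries spread on both sides of them. SERPINB1 had the highest log2 fold change of the 10, 0.13 ± 0.133 (SE), with a 95% interval of -0.18 to 0.43 and a limma adjusted p of 0.636. SRGN encodes serglycin, the proteoglycan core that binds granule proteases for storage (ENSG00000122862; chromosome 10, 69088106 to 69104811, plus strand). It had 53.3, 46.7 and 68.1 FPKM with I1 and 51.2, 53.3 and 58.9 FPKM in control, with the highest and the lowest library both in the I1 group. Its log2 fold change was 0.03 ± 0.156 (SE; limma adjusted p = 0.940). The sign was not stable, with -0.03 under scaling by TMM factors or by median of ratios, -0.02 without control replicate 1 and -0.12 without I1 replicate 3. The inhibitor was more abundant per length than cathepsin G in every library, by 1.06 to 1.72 times.

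RNASE2 and MS4A3 were the least abundant of the 10. RNASE2 encodes eosinophil-derived neurotoxin, an antiviral ribonuclease (ENSG00000169385; chromosome 14, 20955452 to 20956436, plus strand). It had 17.9, 26.6 and 27.9 FPKM with I1 and 18.8, 28.6 and 33.5 FPKM in control. The replicate 1 library was the lowest in both groups, opposite to ELANE, AZU1, CTSG and CFD. Its log2 fold change was -0.14 ± 0.240 (SE; limma adjusted p = 0.767), and it was 0.03 without control replicate 3 and 0.05 without I1 replicate 1. RNASE3, its close paralog, had 1.06 ± 0.201 FPKM with I1 and 1.01 ± 0.210 FPKM in control (SD, n = 3 each), and the assignment of reads that the paralogs share is not described, so both values are uncertain. MS4A3 encodes a membrane protein of granulocyte and monocyte progenitors (ENSG00000149516; chromosome 11, 60056587 to 60071128, plus strand). It had 2.16, 1.72 and 1.69 FPKM with I1 and 1.94, 1.71 and 1.51 FPKM in control, from 74, 61 and 59 reads with I1 and 74, 62 and 56 reads in control. Its spread, a coefficient of variation of 14.0% with I1 and 12.5% in control, is close to the counting error of 12.5% and 12.6%. The log2 fold change was 0.07 ± 0.147 (SE; limma adjusted p = 0.811), and it was -0.0043 without I1 replicate 1 and -0.03 under quantile normalization.

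**Figure D2:**
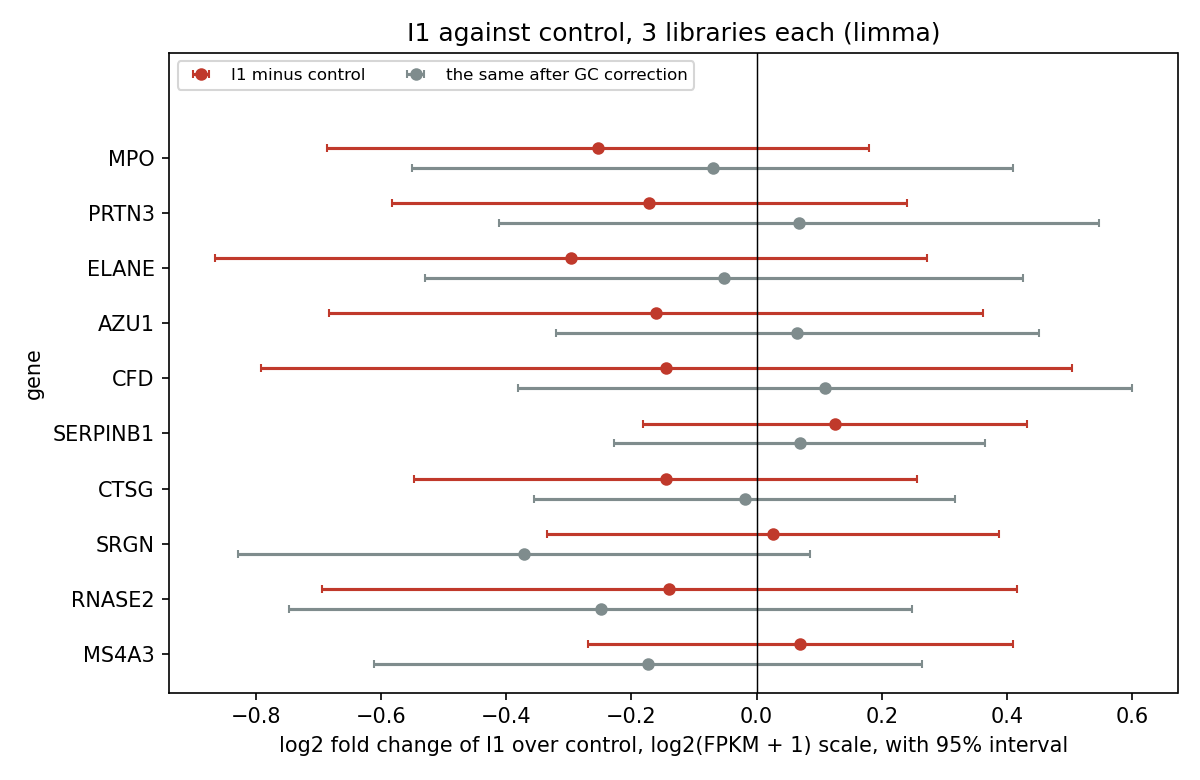
Log2 fold change of I1 over control on the log2(FPKM + 1) scale with its 95% interval by limma, 3 libraries each, for the 10 genes as deposited (red) and after a correction for GC content (grey). Every interval includes 0, before and after the correction.

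By mean level the order was MPO, PRTN3, ELANE, AZU1, CFD, SERPINB1, CTSG, SRGN, RNASE2 and MS4A3. The ranges of PRTN3 and ELANE over the 6 libraries overlapped, although PRTN3 was above ELANE in 6 of 6 libraries, by 1.22 to 2.13 times. The ranges of CFD and SERPINB1 overlapped as well, and CFD was higher in 5 of 6 libraries. The ranges of the other neighbours in this order did not overlap, with MPO 1.39 to 1.87 times PRTN3 and RNASE2 8.32 to 22.1 times MS4A3. AZU1, which sits beside PRTN3, had a mean 4.97 times below that of ELANE.

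**Figure D3:**
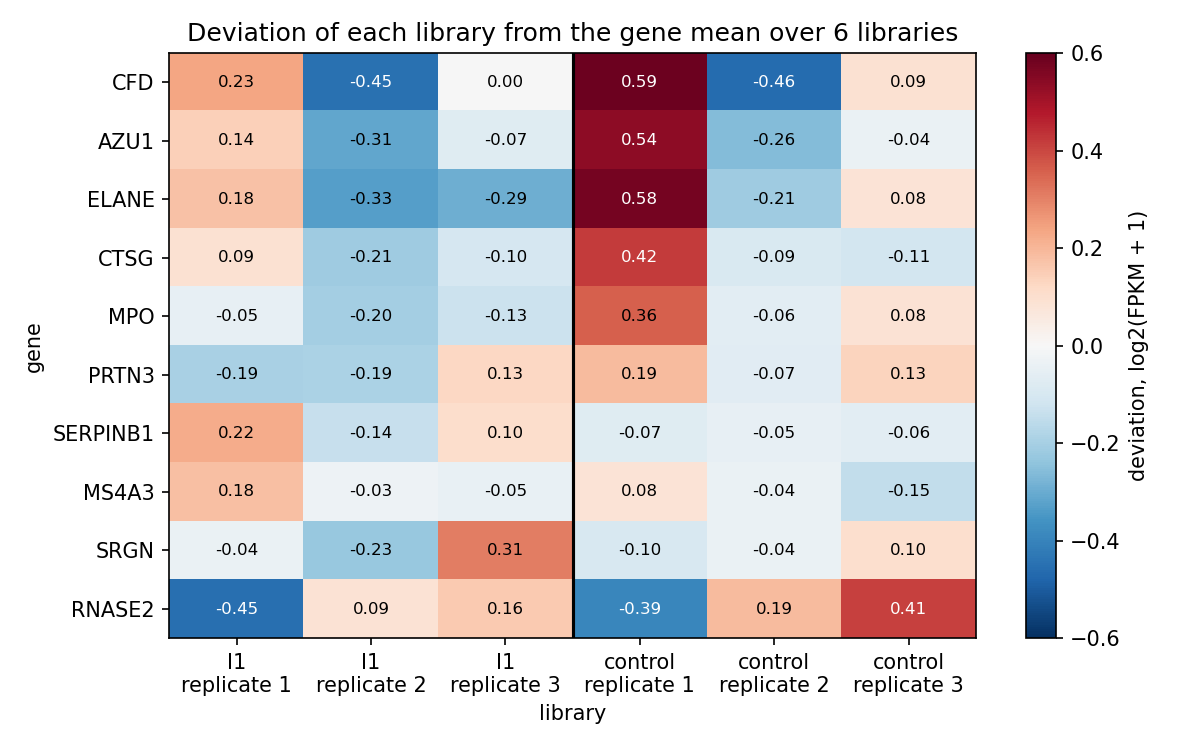
Deviation of each library from the gene's mean over the 6 libraries, in log2(FPKM + 1), with I1 libraries left of the line and control libraries right of it. CFD, AZU1, ELANE and CTSG are high in the replicate 1 library of both groups, and RNASE2 is low in both (-0.45 with I1 and -0.39 in control).

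The libraries with the number 1 differed from the others of their group for several of the genes. In log2 units, I1 replicate 1 lay above the mean of the other I1 libraries by 0.49 for ELANE, 0.33 for AZU1, 0.25 for CTSG and 0.46 for CFD. Control replicate 1 lay above the mean of the other controls by 0.64 for ELANE, 0.69 for AZU1, 0.52 for CTSG and 0.77 for CFD. After a correction of each library for GC content, the differences of control replicate 1 were 0.28 for ELANE, 0.36 for AZU1, 0.40 for CTSG and 0.40 for CFD. For RNASE2 the uncorrected differences were -0.58 with I1 and -0.69 in control, and -0.52 in control after the correction. The highest corrected differences of control replicate 1 were those of MS4A3 and SRGN, 0.55 and 0.47, from 0.17 and -0.13 before the correction. MPO lay above the mean of the others by 0.12 in I1 replicate 1 and by 0.35 in control replicate 1 (0.12 after the correction). PRTN3 did not share the pattern in both groups, with -0.16 with I1 and 0.16 in control (-0.20 in control after the GC correction). After that correction I1 replicates 1, 2 and 3 deviated from the PRTN3 mean over the 6 libraries by -0.12, -0.05 and 0.27. PRTN3 lies between AZU1 and ELANE, and its GC content is 66.2%, against 66.9% for ELANE. The cause of the pattern was not tested. The ratio of AZU1 to PRTN3 was 0.160, 0.117 and 0.111 in the I1 libraries and 0.162, 0.111 and 0.113 in the control libraries. It was higher in the replicate 1 library of both groups and nearly equal among the others, whatever their number. The ratio of ELANE to PRTN3 was 0.811, 0.570 and 0.468 with I1 and 0.820, 0.566 and 0.605 in control. The ratio of AZU1 to ELANE stayed between 0.197 and 0.236 with I1 and between 0.186 and 0.197 in control.

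In direction, 7 of the 10 genes had a log2 fold change below 0, with a median of -0.14, where 45.5% of all tested genes were below 0 and their median was 0.03. Same-numbered pairs were lower with I1 in 3 of 3 for MPO, ELANE, PRTN3, AZU1 and RNASE2, 5 of 10 genes against 25.8% of the tested genes. They were higher in 3 of 3 for MS4A3, 1 of 10 against 32.1%. The median over the 10 genes in the 3 pairs was -0.34, -0.11 and -0.02. Without control replicate 1 it was 0.01, and without control replicate 2 it was -0.24. In bulk RNA, fewer cells of a type and less RNA per cell cannot be told apart.

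GC content moved with these values. Over 11899 tested genes the Spearman correlation of the log2 fold change with GC content was -0.76. MPO, ELANE, PRTN3, AZU1, CTSG and CFD have GC contents of 55.7% to 68.0%, above the median of 48.7% of the tested genes, and all 6 had log2 fold changes below 0, between -0.30 and -0.14. SRGN, SERPINB1, RNASE2 and MS4A3 have 37.8% to 47.8% and lay between -0.14 and 0.13. Over the 2007 tested genes with at least 59% GC, 93.6% were below 0, with a median of -0.21, and of -0.11 without control replicate 1. After a correction of each library for its trend with GC content the log2 fold changes were -0.07 for MPO, -0.05 for ELANE, 0.07 for PRTN3, 0.06 for AZU1, -0.02 for CTSG and 0.11 for CFD, with a median over the 10 genes of -0.04. Then 6 of the 10 lay below 0, against 50.8% of the tested genes. The corrected values of SRGN, RNASE2 and MS4A3 were -0.37, -0.25 and -0.17, that of SERPINB1 was 0.07, and the smallest limma adjusted p of the 10 was 0.969. With the replicate block as well, SRGN had an adjusted p of 0.256 and RNASE2 of 0.235.

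**Figure D4:**
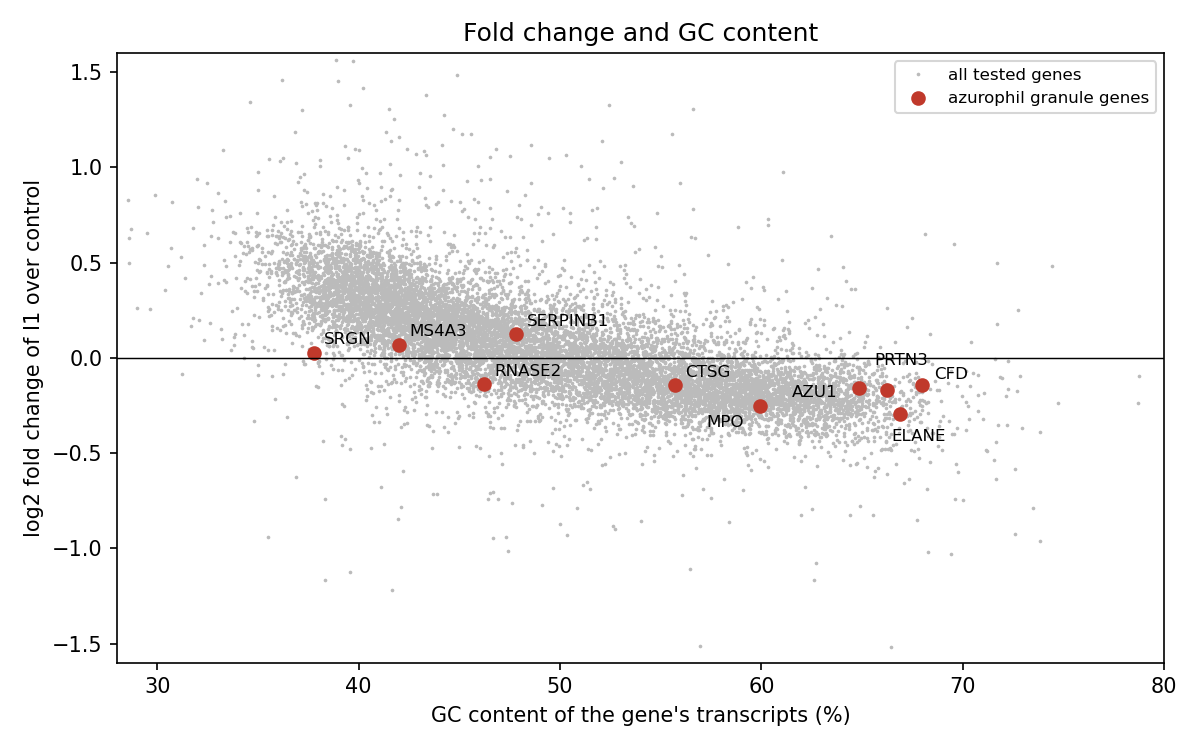
Log2 fold change of I1 over control against the GC content of each gene's transcripts, for all tested genes (grey) and the 10 azurophil granule genes (red); 15 tested genes lie outside the axes. GC-rich genes lie below 0 as a group, and the 6 granule genes with 55.7% to 68.0% GC lie among them.

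The genes around the chromosome 19 group were measured too. Within 50000 bases, PLPPR3, upstream of AZU1 on the other strand, had a mean of 88.9 FPKM with I1 and 127 FPKM in control. Every I1 library lay below every control, as in 8.74% of the tested genes. The log2 fold change of PLPPR3 was -0.48 (limma adjusted p = 0.467), and -0.21 after the GC correction. PTBP1, a splicing regulator, had 112 FPKM in both groups (log2 fold change 0.0012, and 0.18 after the GC correction). MED16, a Mediator subunit downstream of CFD, had a log2 fold change of -0.29 (limma adjusted p = 0.467), and of -0.06 after the GC correction. In MED16 too every I1 library lay below every control. The summit of expression in this stretch was thus at PRTN3 and ELANE in both groups.

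Further genes were described by list, and no gene of these lists passed by limma. At an unadjusted p under 0.05 there were 1 of the other azurophil contents, 1 of the maturation genes, 2 of the inhibitors, 4 of the transcription factors and 0 in the remaining lists, where 9.57% of all tested genes had such a p. For the other azurophil granule contents the counts were as follows. Of 11 tested genes 0 passed in either direction, 8 lay below 0 and the median log2 fold change was -0.21, and -0.02 after the GC correction. PRSS57, a serine protease related to the others, had 636 ± 76.1 FPKM with I1 and 761 ± 138 FPKM in control (SD, n = 3 each; log2 fold change -0.25, and 0.0022 after the GC correction). GAA, lysosomal alpha-glucosidase, had 77.5 ± 5.43 FPKM with I1 and 90.6 ± 14.8 FPKM in control. CD63, a tetraspanin of the granule membrane, had 58.3 ± 3.99 FPKM with I1 and 68.7 ± 6.65 FPKM in control. GUSB, beta-glucuronidase, had 47.7 ± 4.54 FPKM with I1 and 59.8 ± 5.55 FPKM in control. Every I1 library lay below every control, as in 8.74% of the tested genes. The log2 fold change of GUSB was -0.32 ± 0.127 (SE; limma adjusted p = 0.467), and -0.19 after the GC correction. LYZ, lysozyme, had 6.76 ± 2.83 FPKM with I1 and 7.82 ± 3.54 FPKM in control. BPI was below the filter, and DEFA1, DEFA1B, DEFA3 and DEFA4 had no entry.

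Genes that mature and sort the granule proteins moved in no common direction. Of 18 tested, 9 lay above 0 and 9 below, 0 passed, and the median was 0.00, and -0.04 after the GC correction. In 2 of the 18, CANX and LYST, every I1 library lay above every control, against 12.9% of the tested genes. In 2, TCIRG1 among them, every I1 library lay below every control, against 8.74%. CALR, a chaperone of the myeloperoxidase precursor, had 1251 ± 94.2 FPKM with I1 and 1377 ± 184 FPKM in control. CANX, its membrane-bound counterpart, had 264 ± 46.4 FPKM with I1 and 201 ± 39.4 FPKM in control, with every I1 library above every control (log2 fold change 0.39 ± 0.191 SE, limma adjusted p = 0.467). The log2 fold change of CANX was 0.25 after the GC correction, 0.23 without control replicate 1 and 0.25 without I1 replicate 3. LYST, the lysosomal trafficking gene mutated in Chediak-Higashi syndrome with its giant granules, had 31.5 ± 1.99 FPKM with I1 and 23.7 ± 6.35 FPKM in control. The log2 fold change of LYST was 0.43 (limma adjusted p = 0.467), and 0.09 after the GC correction. Control replicate 1 had the lowest LYST level, 16.5 FPKM against 25.9 and 28.6 FPKM in the other controls. TCIRG1, a proton pump subunit, had 10.3 ± 0.544 FPKM with I1 and 13.1 ± 1.10 FPKM in control. The log2 fold change of TCIRG1 was -0.32 (limma adjusted p = 0.467), and -0.09 after the GC correction.

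Among other inhibitors of granule proteases 0 of 8 tested genes passed and 6 lay below 0. Their median was -0.11, and -0.18 after the GC correction. SERPINB6 had 31.2 ± 3.57 FPKM with I1 and 34.1 ± 5.02 FPKM in control. SERPINA1, alpha-1-antitrypsin, had 12.5 ± 0.835 FPKM with I1 and 15.7 ± 0.859 FPKM in control, and CST3, cystatin C, 12.5 ± 1.94 FPKM with I1 and 16.5 ± 0.591 FPKM in control. In both every I1 library lay below every control, as in 8.74% of the tested genes, and both had a limma adjusted p of 0.467. Log2 fold changes were -0.31 for SERPINA1 and -0.39 for CST3, and -0.21 and -0.34 after the GC correction. SERPINB1 stood well above them, at 240 ± 30.3 FPKM with I1 and 219 ± 1.83 FPKM in control (SD, n = 3 each).

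In the lists of later and of other granules, which do not hold RNASE2, few genes were tested. Of the 12 genes of specific and gelatinase granules in the table, only MMP25, a membrane-anchored metalloprotease, was tested, with 2.01 ± 0.593 FPKM with I1 and 3.22 ± 0.982 FPKM in control. The others, LCN2, MMP9 and CEACAM8 among them, did not exceed 1.03 FPKM in any library. Of 14 genes of eosinophil, basophil, mast cell and cytotoxic granules, RNASE3 and NKG7 were tested and 0 passed. NKG7, of cytotoxic granules, had 0.920 ± 0.608 FPKM with I1 and 1.21 ± 0.0555 FPKM in control. The summed level of the eosinophil, basophil, mast cell and cytotoxic genes was 2.98 to 4.32 FPKM with I1 and 3.37 to 5.65 FPKM in control.

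The list of transcription factors of azurophil granule genes had 13 tested members, of which 0 passed, 7 lay below 0 and the median was -0.06. After the GC correction the median was -0.06 as well. GFI1, a transcriptional repressor, had 131 ± 14.3 FPKM with I1 and 142 ± 15.1 FPKM in control. SPI1, which encodes PU.1, had 88.0 ± 4.95 FPKM with I1 and 113 ± 9.87 FPKM in control. Every I1 library lay below every control, as in 8.74% of the tested genes. The log2 fold change of SPI1 was -0.36 (limma adjusted p = 0.467), and -0.14 after the GC correction. MYB had 60.5 ± 3.22 FPKM with I1 and 56.6 ± 2.36 FPKM in control. CEBPD, a C/EBP factor, had 16.9 ± 2.57 FPKM with I1 and 30.1 ± 10.4 FPKM in control, a log2 fold change of -0.75 ± 0.246 (SE) with a limma adjusted p of 0.467. It was -0.48 after the GC correction and -0.51 without control replicate 1. Another list held relatives of RNASE2 and MS4A3 and genes of chondroitin sulfate proteins, the class to which serglycin belongs. Of 8 tested, 0 passed and 7 lay above 0, as did 6489 of all 11913 tested genes. The median log2 fold change of the 8 was 0.17, and 0.09 after the GC correction. CD74 had 77.0 ± 17.8 FPKM with I1 and 68.9 ± 19.9 FPKM in control, CD44 37.2 ± 7.43 FPKM with I1 and 32.7 ± 5.39 FPKM in control, and MS4A7 3.62 ± 0.949 FPKM with I1 and 2.58 ± 1.04 FPKM in control. Of 7 tested genes of the alternative complement pathway beside CFD 0 passed. CFP, properdin, had 3.71 ± 0.474 FPKM with I1 and 4.48 ± 0.349 FPKM in control, and CD46, a regulator on the cell surface, 24.0 ± 2.37 FPKM with I1 and 18.5 ± 3.80 FPKM in control. CFB, the substrate of factor D, was not tested, and it was listed at 0 in every library but control replicate 1, which had 0.0110 FPKM.

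The genes whose profile over the 6 libraries lay nearest to the mean profile of the 10, among 6919 others with a mean of at least 5 FPKM, were ANXA11, GLB1, PCBP2, STK10 and ARID5A. Their root mean square distances were 0.0215, 0.0334, 0.0335, 0.0353 and 0.0375 in log2 units, where the median over the candidates was 0.230. The mean profile itself lay 0.22 above its average in control replicate 1 and 0.20 below it in I1 replicate 2, so likeness here is mainly a likeness in these libraries.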

How the data were processed

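Per the labels' protocols, RNA of 6 Kasumi-1 samples was taken up in Trizol, and a stranded mRNA kit gave the libraries. The authors deposited 1 table of FPKM values for 29810 genes. Trimmomatic, HISAT2, Cufflinks and HTSeq with build hg38 are named per the submitters' processing notes; their roles and versions, annotation and use of strand are not described. The table is named after cell lines and a compound that differ from those of its columns. Its 6 columns carry the 6 sample titles, on which its use rests. Symbols were found for 29507 identifiers. With exon lengths of GENCODE release 29 (29703 genes), 95.9% of genes gave whole read numbers within 0.05 reads, which gave library totals and reads; a read in a kilobase was worth 0.0549 to 0.0610 FPKM.

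The test was limma 3.58.1 (R 4.3.3), I1 against control, on log2(FPKM + 1) with an intensity trend, 2-sided, with Benjamini-Hochberg adjustment over all 11913 tested genes; tables were prepared with Python 3.11.15. Genes pass at an adjusted p under 0.05. Intervals cover counting or replicate error only. The fit was also run on simulated data, with larger changes than those of the 10 genes. That simulation held no GC trend and no effect shared by same-numbered libraries, so it does not test the fit under these. GC content came from GENCODE transcripts, for 11899 tested genes, and the correction subtracted a loess trend (span 0.3) from each library. The members and the lists were chosen with earlier results of these data known. Genes named are the 10 members, the genes nearest in profile and, per list, up to 3 of the most abundant and up to 2 with the smallest p. Neighbours on chromosome 19, LYZ, genes at or near 0 and genes without an entry were chosen after the results were seen. Sample titles carry a number, 1 to 3, within I1 and within control. Same-numbered samples deviated together from their group means, with correlations of 0.476, 0.457 and 0.412 for numbers 1, 2 and 3. Samples of unlike number had -0.348 to -0.0987, all without GC correction. Samples were paired by number on that basis, so the pair counts and the block fit rest on a pairing taken from the same values. Motif letters are common cores for these factors, also set with results known. Upstream sequences are from RefSeq, which matched 7 of the 10 genes; those of SERPINB1 and MS4A3 overlap an exon of their gene in GENCODE and are not shown.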

Additional observations from a re-analysis of the deposited data

How the results depend on the processing

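Under all 18 alternatives 0 of the 10 granule genes passed, and their median log2 fold change lay between -0.24 (without control replicate 2) and 0.01 (without control replicate 1). The number of passing genes over the whole table, 4, was 0 with pseudocounts of 0.1 or 0.5, with no filter, with a mean of at least 5 FPKM, with protein-coding genes alone and with the GC correction (592 to 1726 genes had an unadjusted limma p under 0.05 in these), 2 under quantile normalization and 14 with array weights. It was 6 with the replicate block, 1 with the replicate block and GC correction, and 0 to 2 with a library left out. The replicate block moved no call of a granule gene.

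The GC correction, with or without the replicate block, turned the sign for PRTN3 (0.068), AZU1 (0.065), CFD (0.11), SRGN (-0.37), MS4A3 (-0.17), PRSS57 (0.0022), GAA (0.0092), GFI1 (0.024), MYB (-0.060), CD46 (-0.029) and RNASE3 (-0.033). Array weights turned it for CTSG (0.0018), SRGN (-0.044) and CALR (0.016), quantile normalization for MS4A3 (-0.034), CALR (0.048) and RNASE3 (-0.073), and scaling by TMM or by median of ratios for SRGN (-0.031 and -0.034) and RNASE3 (-0.0022 and -0.0024). With a library left out the log2 fold change ran from -0.33 to 0.068 for AZU1, -0.24 to 0.028 for CTSG, -0.41 to 0.11 for CFD, -0.12 to 0.15 for SRGN, -0.37 to 0.052 for RNASE2, -0.0043 to 0.13 for MS4A3, -0.048 to 0.11 for RNASE3 and -0.043 to 0.38 for CD74. In none of these was the value past the threshold. MPO, ELANE and SERPINB1 kept their sign under every alternative, with -0.35 to -0.07, -0.48 to -0.05 and 0.04 to 0.23. Apart from the corrections named, the cause was not tested. MS4A3 was not tested at a mean of at least 5 FPKM. With a library left out PRTN3 ran from -0.28 to -0.12. Of the 10 genes, depth limits MS4A3 most, with 56 to 74 reads a library; RNASE3 (0.801 to 1.23 FPKM) and NKG7 (0.457 to 1.61 FPKM) are lower still.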
